A study of Mus musculus with 6 samples.

Results

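MHC class II molecules carry peptides from endocytosed proteins to the surface of antigen-presenting cells, where CD4+ T cells read them. The class II α and β chains are assembled on the invariant chain, cathepsins trim that chain inside the endolysosome, and H2-DM exchanges its last fragment for a peptide. Transcription of these genes depends on the transactivator CIITA, which binds no DNA itself but docks on factors at a conserved promoter element. CD80, CD86 and CD40 give the second, costimulatory part of the message to the T cell. Osteoclasts arise from the same myeloid precursors as macrophages and dendritic cells, the cells best known for this equipment.

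Here 10 genes of this machinery were followed, taken from the 22601 genes of the count table by their symbols: the chain genes *H2-Aa*, *H2-Ab1* and *H2-Eb1*, the peptide-loading genes *H2-DMa*, *H2-DMb1* and *Cd74*, the transactivator *Ciita*, and the costimulatory genes *Cd86*, *Cd80* and *Cd40*. All 10 were listed and all 10 passed the filter on low counts, which left 13483 genes. The libraries were 3 from wild-type (WT) mice and 3 from *Slc37a2* knockout (KO) mice, which lack a sugar transporter of osteoclast secretory lysosomes. The KO mice are homozygous for a KOMP targeting cassette (tm2a) inserted in *Slc37a2*, derived from a single embryonic stem cell clone, and both genotypes are on C57BL/6N. Per the labels, bone marrow macrophages were cultured for 5 days with RANKL at 10 ng/ml and M-CSF at 2 ng/ml to give osteoclasts, whereas the RNAseq methods of the study describe RNA from whole femurs and tibias. The column headings give an age of 11 weeks, the letter F and an animal number for each library, and libraries are named here by that number: K090, L080 and L082 (WT), and K089, L078 and L081 (KO).

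Totals ran from 27552183 to 42522292 counts per library. *Slc37a2* itself was at 2149 ± 292 CPM (SD, n = 3) in WT and 38.1 ± 6.66 CPM (SD, n = 3) in KO libraries, where CPM is counts per 1000000 after TMM scaling of the library sizes. The osteoclast genes checked (*Acp5*, *Ctsk*, *Mmp9* and 7 others) summed to between 39869 and 57359 CPM in WT and between 44352 and 70383 CPM in KO libraries, unscaled. The first principal component held 57.7% of the variance and placed K090, L080 and L078 at −24.7, −22.4 and −34.3, and L082, L081 and K089 at 9.78, 31.6 and 40.1, so the libraries divided across genotypes.

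In the GENCODE M21 annotation of GRCm38 the 5 H2 genes lie close together on chromosome 17. *H2-DMa* spans 34119541 to 34139101, *H2-DMb1* spans 34153072 to 34160230, *H2-Ab1* spans 34257689 to 34269419, *H2-Aa* spans 34282744 to 34287823 and *H2-Eb1* spans 34305867 to 34316674. *H2-Aa* is on the minus strand and the other 4 are on the plus strand. *Ciita* (10480059 to 10528418), *Cd86* (36603869 to 36666081) and *Cd80* (38455561 to 38496335) are on chromosome 16, and *Cd40* (165055627 to 165072948) is on chromosome 2. Exons of *H2-DMa* overlap those of *Brd2* on the opposite strand, which had up to 19482 counts in a library, and exons of *Ciita* overlap those of *Dexi*, which had up to 304 counts. Whether counting used strand is not given in the sources used here, so reads of these pairs may not be separated.

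Class II promoters are known for an X box, bound by the RFX complex, that stands at a fixed distance before a Y box, bound by NF-Y. This arrangement was sought as GNAAC followed, 24 to 32 bases on, by ATTGG, on either strand, in RefSeq promoters of GRCm38.p6 (250 bases before to 50 after each start). It was in 505 of 32851 promoters (1.54%). The promoter table held 6 windows of 5 members (*H2-Aa*, *H2-Eb1*, *H2-DMb1*, *Cd80* and 2 starts of *H2-DMa*). The pair was in 3 of these, each once and on the strand of the gene. The windows are shown because these genes are the ones whose levels are compared below, with the letters of the pair in capitals:

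H2-Aa: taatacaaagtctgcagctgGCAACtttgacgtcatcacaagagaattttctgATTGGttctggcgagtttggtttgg

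H2-Eb1: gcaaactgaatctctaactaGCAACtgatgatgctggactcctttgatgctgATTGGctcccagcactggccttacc

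H2-DMb1: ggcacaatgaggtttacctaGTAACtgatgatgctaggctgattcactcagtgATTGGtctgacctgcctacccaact

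They lie at chr17:34287847-34287924 on the minus strand (*H2-Aa*, −101 to −24 from the start), chr17:34305756-34305832 on the plus strand (*H2-Eb1*, −111 to −35) and chr17:34153077-34153154 on the plus strand (*H2-DMb1*, −114 to −37). Positions count from the RefSeq start, which for *H2-DMb1* lies inside the span GENCODE gives the gene. The gap between the capitals was 28 bases in *H2-Aa* and *H2-DMb1* and 27 bases in *H2-Eb1*. The second run of capitals is at the same time a CCAAT on the opposite strand, a motif that 37.4% of all promoters hold. An interferon-stimulated response element written as GAAA, any 2 bases and GAAA (3.44% of promoters) was not in these letters in any of the 6 windows. Such matches describe the sequence and are not evidence of binding.

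The chain genes were counted at low levels in every library. *H2-Aa*, the α chain of I-A, had 127, 160 and 49 counts in WT K090, L080 and L082 and 128, 145 and 186 counts in KO K089, L078 and L081. Scaled, these were 3.11, 5.65 and 1.57 CPM in WT and 4.70, 3.22 and 6.58 CPM in KO. *H2-Ab1*, its β chain partner, was at 2.84, 3.53 and 1.64 CPM in WT and 3.67, 2.37 and 5.34 CPM in KO libraries. WT L082 was lowest and KO L081 highest for both, and the remaining libraries of the genotypes interleaved.

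*H2-Eb1*, the β chain of I-E, was at 2.99, 3.96 and 2.18 CPM in WT and 3.38, 2.64 and 5.48 CPM in KO libraries, again with L082 lowest and L081 highest. C57BL/6 mice carry an MHC haplotype that makes no I-E α chain, so this transcript has no partner to form I-E with. The α chain gene *H2-Ea* was not analysed here. The 49 counts of *H2-Aa* in L082 have an exact 95% Poisson interval of 36.3 to 64.8 counts, and the 186 counts in L081 one of 160 to 215 counts, which cover counting error only.

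**Figure D1:**
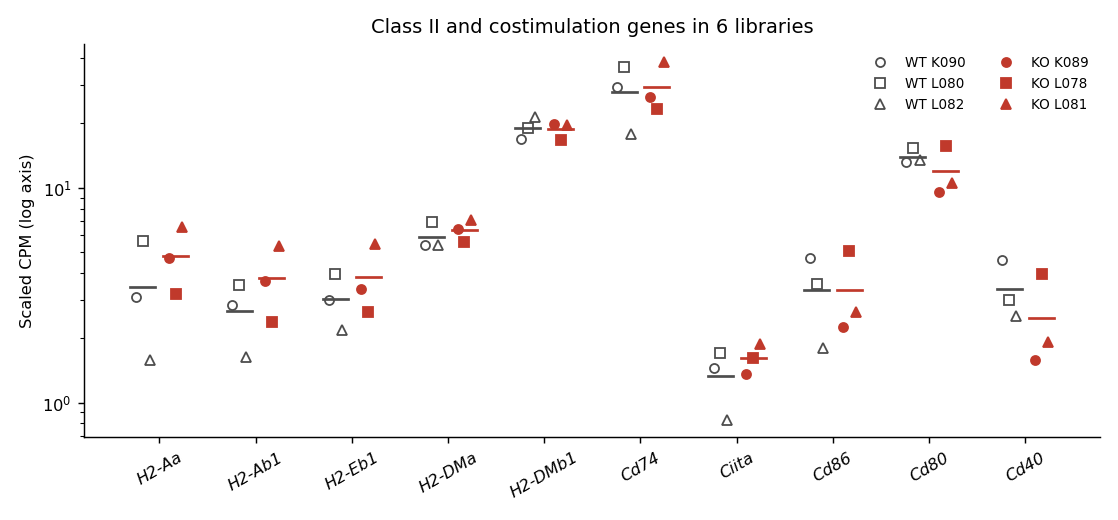
Scaled CPM (log axis) of the 10 genes in 6 libraries. Open grey symbols are WT, filled red symbols KO, and bars are means of 3 libraries; the genotypes overlap for every gene, L082 (open triangle) is lowest for the 3 chain genes, and L081 (filled triangle) is highest for them.

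Means and differences followed from these values. *H2-Aa* was at 3.45 ± 2.06 CPM (SD, n = 3) in WT and 4.83 ± 1.68 CPM (SD, n = 3) in KO libraries, a log2 fold change of KO over WT of 0.49 (standard error 0.49, 95% interval −0.69 to 1.67). *H2-Ab1* was at 2.67 ± 0.960 and 3.79 ± 1.49 CPM (SD, n = 3 each), with a log2 fold change of 0.50 (standard error 0.39, interval −0.45 to 1.45). *H2-Eb1* was at 3.04 ± 0.889 and 3.83 ± 1.47 CPM (SD, n = 3 each), with 0.33 (standard error 0.35, interval −0.50 to 1.16). For the 3 genes the quasi-likelihood test of edgeR gave an adjusted p of 0.969 (Benjamini-Hochberg, all tested genes). The differences were thus no larger than the spread between libraries. They also depended on single libraries. Without L082 the log2 fold changes were 0.17, 0.27 and 0.17 for *H2-Aa*, *H2-Ab1* and *H2-Eb1*, and without L081 they were 0.22, 0.20 and 0.0029. Without L080, in contrast, *H2-Aa* was at 1.03 and *H2-Eb1* at 0.56, and without L078 *H2-Ab1* was at 0.75, so that single libraries moved these values in either direction.

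Of the genes that load peptide, *Cd74* spanned 2.17-fold over the libraries, and the H2-DM pair varied less. *Cd74*, the invariant chain, was the most abundant of the 10 genes, at 29.6, 36.4 and 17.7 CPM in WT and 26.5, 23.3 and 38.5 CPM in KO libraries. L082 was lowest and L081 highest here as well. Its means were 27.9 ± 9.47 and 29.5 ± 8.02 CPM (SD, n = 3 each), and its log2 fold change was 0.08 (interval −0.65 to 0.80).

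*H2-DMa* and *H2-DMb1* encode the α and β chains of H2-DM, which sits in the endolysosome. *H2-DMa* was at 5.39, 6.93 and 5.42 CPM in WT and 6.46, 5.57 and 7.11 CPM in KO libraries (log2 fold change 0.11, interval −0.30 to 0.51). *H2-DMb1* was at 16.8, 19.0 and 21.4 CPM in WT and 19.8, 16.6 and 19.7 CPM in KO libraries (log2 fold change −0.03, interval −0.33 to 0.28). The highest library exceeded the lowest 1.32-fold for *H2-DMa* and 1.29-fold for *H2-DMb1*, against 4.18-fold for *H2-Aa*. Within its narrow range *H2-DMa* was above its own mean in the same libraries as the mean of the chain genes and *Cd74* (L080, K089 and L081). The near-identical neighbour *H2-DMb2* had 1 to 12 counts per library. How shared reads were counted is not given in the sources used here, so these counts do not show how many reads the copies share.

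*Ciita*, the transactivator, was the lowest of the 10, with 59, 48 and 26 counts in WT and 37, 73 and 53 counts in KO libraries. Scaled, it was at 1.45, 1.70 and 0.835 CPM in WT and 1.36, 1.62 and 1.87 CPM in KO libraries, once more with L082 lowest and L081 highest. Its log2 fold change was 0.29 (standard error 0.31, interval −0.46 to 1.03), and was 0.07 without L082 and 0.50 without L080.

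Costimulatory genes had another order of libraries. *Cd86*, a ligand of CD28 and CTLA-4, was at 4.70, 3.57 and 1.80 CPM in WT and 2.24, 5.10 and 2.65 CPM in KO libraries. *Cd40*, the receptor through which helper T cells activate antigen-presenting cells, was at 4.63, 3.00 and 2.54 CPM in WT and 1.58, 3.97 and 1.91 CPM in KO libraries. For both, K090, L080 and L078 were the 3 highest libraries. *Cd80*, the other CD28 ligand, was at 13.2, 15.2 and 13.5 CPM in WT and 9.51, 15.7 and 10.5 CPM in KO libraries, and here KO libraries held the highest and the lowest value.

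The log2 fold change was −0.00485 for *Cd86* (standard error 0.45, interval −1.09 to 1.08), −0.23 for *Cd80* (standard error 0.20, interval −0.72 to 0.27) and −0.44 for *Cd40* (standard error 0.42, interval −1.44 to 0.57). KO library L078 stood apart from the other KO libraries for these genes. Without it edgeR gave a log2 fold change of −0.96 for *Cd40* (adjusted p = 0.227) and of −0.48 for *Cd80* (adjusted p = 0.226). These were the 2 genes of the 10 with an unadjusted p below 0.05 in that setting, where 20.1% of all tested genes had one, so their share was that of genes at large.

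**Figure D2:**
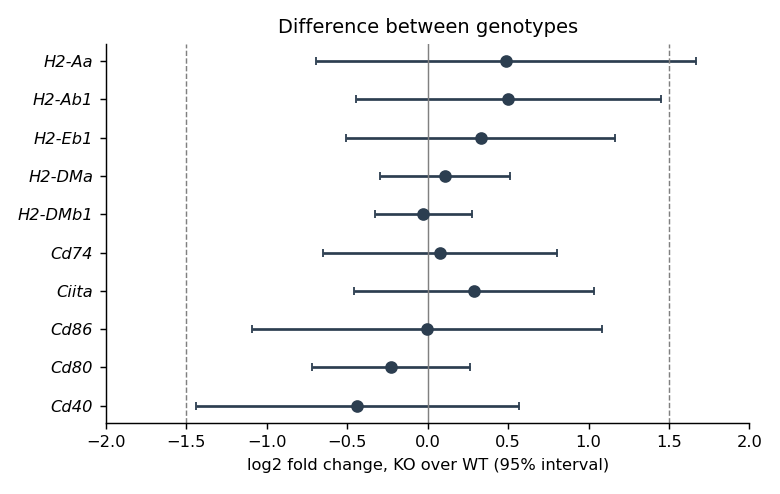
Log2 fold change of KO over WT with its 95% interval from edgeR's quasi-likelihood fit for the 10 genes; dashed lines mark −1.5 and 1.5. Every interval includes 0, and that of H2-Aa alone reaches past 1.5.

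Across the 10 genes, 0 passed an adjusted p below 0.05 together with an absolute log2 fold change over 1.5, the limits used in the study, in edgeR's quasi-likelihood test. Of all tested genes 1 did (0.00742%). An unadjusted p below 0.05 was reached by 0 of the 10 and by 0.712% of all tested genes. Under the Wald test of DESeq2 and the likelihood ratio test of edgeR, 0 of the 10 passed both limits, beside 2 of all 13483 tested genes in each. In these 2 tests 0 of the 10 had an unadjusted p below 0.05, and the share of all tested genes is not given here. The groups did not overlap for 0 of the 10, against 4.31% of all tested genes. Without WT L080 they did not overlap for 2 of the 10 and for 9.59% of all tested genes, and without KO L078 for 3 of the 10 and for 41.8%. The log2 fold change was positive for 6 and negative for 4, beside 43.8% positive among all tested genes, with a median of 0.09 beside −0.02 over all tested genes. With a library left out the median of the 10 ran from 0.02 (without L081) to 0.28 (without L080), and in the animals with the heading letter L it was 0.29. In the full set it was 0.29 for the 7 class II genes and −0.23 for the 3 costimulatory genes.

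These intervals give the size of difference the libraries leave room for. For 9 of the 10 genes the whole interval lay between −1.5 and 1.5, and that of *H2-Aa* reached 1.67, a 3.18-fold higher level in KO. The narrowest was that of *H2-DMb1*, from 0.796-fold to 1.21-fold. The smallest two-sided p that exact permutation of 3 against 3 libraries allows is 0.1.

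The first letter of the animal number (K or L) occurs in both genotypes, and the labels do not say what it stands for. Within the K pair, 1 library against 1 and hence without a test, KO differed from WT by −1.52 log2 for *Cd40*, −1.05 for *Cd86*, 0.59 for *H2-Aa* and 0.36 for *H2-Ab1*. Within the L animals the log2 fold change was 0.10 for *Cd40*, 0.54 for *Cd86*, 0.44 for *H2-Aa* and 0.57 for *H2-Ab1*. The K values are differences of log2 CPM with a prior count of 2, the L values come from a separate edgeR fit. Their sizes are therefore not on the same scale. The sign differed between the letters for 5 of the 10 genes: *Cd40*, *Cd86*, *Ciita* (−0.09 in the K pair and 0.47 in the L animals), *Cd74* (−0.16 and 0.19) and *H2-DMb1* (0.24 and −0.15). It was positive in both for *H2-Aa*, *H2-Ab1*, *H2-Eb1* and *H2-DMa*, and negative in both for *Cd80* (−0.47 and −0.13).

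Variation between libraries, rather than between genotypes, was the main feature of these genes. The SD of log2 CPM over the 6 libraries was 0.73 for *H2-Aa*, higher than in 93.8% of tested genes, 0.59 for *Cd86* (89.3%), 0.59 for *Cd40* (89.1%) and 0.57 for *H2-Ab1* (88.6%). At the other end it was 0.18 for *H2-DMa* and 0.14 for *H2-DMb1*. It lay above the median of all tested genes (0.16) for 9 of the 10. By level the 10 ranked from 6022 (*Cd74*) to 11402 (*Ciita*) among the tested genes, and counting error is larger at low counts. The comparison was not matched for level. Counting error alone would give 0.14 for *H2-Aa*, 0.15 for *Cd86* and 0.22 for *Ciita*, whose observed SD was 0.39.

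The chain genes and *Cd74* varied in parallel. After centring each gene on its average over 6 libraries, the mean of *H2-Aa*, *H2-Ab1*, *H2-Eb1* and *Cd74* was −0.10, 0.36 and −0.83 log2 in WT K090, L080 and L082, and 0.14, −0.28 and 0.70 in KO K089, L078 and L081. L082 was lowest and L081 highest for 4 of these 4 genes. As a result the ratios between them stayed narrower than the levels. The scaled CPM of *H2-Aa* over that of *H2-Ab1* ran from 0.961 to 1.60, and that of *Cd74* over *H2-Ab1* from 7.22 to 10.8, lower in K089 (7.23) and L081 (7.22) than in the other 4 libraries. The ratio of *H2-Aa* to *H2-Eb1* ran from 0.721 to 1.43, a 1.98-fold span, beside a 2.17-fold span of the level of *Cd74*. In contrast, the ratio of *Cd86* to *H2-Ab1* ran from 0.497 in L081 to 2.15 in L078, a 4.33-fold span.

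**Figure D3:**
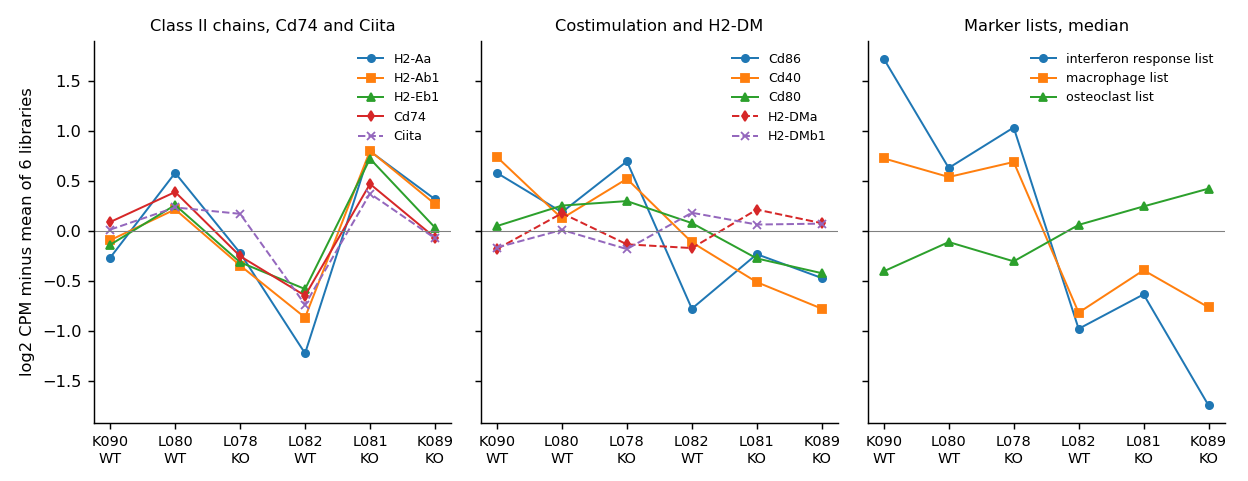
Log2 CPM minus the mean of 6 libraries for single genes (left, middle) and the median of 3 marker lists (right). Libraries are placed from left to right so that the 3 with the highest interferon response genes come first, and lines only join points of a gene; Cd86 and Cd40 are above 0 in K090, L080 and L078, as are the interferon response and macrophage lists, whereas the chain genes have their lowest value in L082 and their highest in L081.

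The order seen for *Cd86* and *Cd40* was shared by interferon response genes and most of the listed macrophage genes. K090, L078 and L080 were the 3 highest libraries for 12 of 12 interferon response genes (*Ifit1*, *Isg15*, *Irf7* and others) and 8 of 10 macrophage genes (*Adgre1*, *Mrc1*, *Lyz2* and others). They were so for 22.6% of all tested genes and for 0 of the 7 class II genes, too few genes to tell 0 from that share. The macrophage genes *Csf1r* and *Cd68* were instead highest in K089 and L081. *Csf1r* was at 1757, 1885 and 1851 CPM in WT and 2096, 1724 and 1971 CPM in KO libraries. *Cd68* was at 1454, 1578 and 1864 CPM in WT and 2252, 1491 and 2039 CPM in KO libraries. The interferon response genes summed to 229, 126 and 40.2 CPM in WT K090, L080 and L082 and to 29.6, 150 and 47.9 CPM in KO K089, L078 and L081, unscaled. Macrophage genes summed to between 5318 and 8807 CPM in WT and between 5352 and 8310 CPM in KO libraries, also unscaled. Their part in the values of *Cd86* and *Cd40* was not tested. In bulk RNA fewer cells of a type and less RNA per cell cannot be told apart.

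For *H2-Aa*, *H2-Ab1*, *H2-Eb1* and *H2-DMa* the 3 highest libraries were K089, L080 and L081, an order found in 6.62% of all tested genes. It was found in 0 of the 12 interferon response genes, too few genes to tell 0 from that share. The 5 other genes whose library profile lay closest to the mean of the chain genes and *Cd74* were *Napsa*, *Ly6g5b*, *Hspb7*, *A330023F24Rik* and *Gm29948*. Closeness was the root mean square difference of centred log2 CPM over the 6 libraries, 0.0954 for *Napsa* and 0.198 for *Gm29948*, with a median of 0.51 over all tested genes. *Ly6g5b* had 8 to 21 counts per library and *Hspb7* 10 to 22 counts. At such counts, and picked as the closest of all tested genes, their match cannot be told apart from counting error. *Napsa*, an aspartic protease, had 292, 339 and 160 counts in WT and 275, 313 and 411 counts in KO libraries. The ratio of its scaled CPM to that of *H2-Ab1* ran from 2.52 to 3.39. *Napsa* was picked for its closeness, over these same libraries, to a mean that includes *H2-Ab1*. A narrow ratio therefore follows from that choice and is not separate evidence that *Napsa* and *H2-Ab1* vary together.

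Other antigen-presenting cells carry the same genes at high levels, so their own markers were examined. Of the B cell markers, *Cd79a* had at most 2 counts in a library, and 7 listed markers together summed to between 4.33 and 7.26 CPM in WT and between 3.31 and 8.77 CPM in KO libraries, most of it *Ebf1*, which stromal cells also express, and *Ighm*. Of the dendritic cell markers, *Xcr1* had at most 1 count, *Batf3* at most 5 counts, *Flt3* between 4 and 12 counts and *Ccr7* between 7 and 19 counts. Not all were near 0. *Zbtb46* was at 4.53 to 7.03 CPM, beside 1.57 to 6.58 CPM for *H2-Aa*. *Itgax*, which macrophages and osteoclast precursors also express, was at 14.7 to 25.3 CPM. The 8 listed dendritic cell markers summed to between 22.2 and 26.9 CPM in WT and between 24.3 and 29.7 CPM in KO libraries. Of the T cell markers 4 were listed, and they summed to between 13.9 and 18.9 CPM in WT and between 13.2 and 17.6 CPM in KO libraries, most of it *Cd5*. Stromal genes summed to between 811 and 1526 CPM in WT and between 571 and 1830 CPM in KO libraries. The sums of these marker lists are unscaled, whereas the CPM of single genes are scaled.

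Levels of different genes were compared per kilobase of exon (the union of exons in GENCODE M21, which may not be the annotation the counts were made with). *Cd74* was highest of the 10 at 17.1 ± 4.70 scaled CPM per kilobase (SD, n = 6 libraries), followed by *H2-DMb1* (11.2 ± 1.11), *Cd80* (3.50 ± 0.671), *H2-DMa* (1.78 ± 0.226), *H2-Eb1* (1.77 ± 0.602), *H2-Ab1* (1.26 ± 0.497), *H2-Aa* (1.09 ± 0.486), *Cd86* (0.913 ± 0.368), *Cd40* (0.863 ± 0.348) and *Ciita* (0.154 ± 0.0379). Of neighbours in this order, *H2-DMb1* over *Cd80*, *Cd80* over *H2-DMa*, *H2-Eb1* over *H2-Ab1* and *Cd40* over *Ciita* held in 6 of 6 libraries. The order of *Cd74* and *H2-DMb1* reversed in 1 library (L082), that of *H2-Ab1* and *H2-Aa* in 1 library (L080), and *H2-Aa* and *Cd86* were each the higher in 3 libraries. All these orders rest on the lengths used, such as 3798 bases for *H2-Aa*, 2568 for *H2-Ab1* and 1944 for *H2-Eb1*. Not divided by length, *H2-Aa* over *H2-Ab1* ran from 0.961 to 1.60 and *H2-Ab1* over *H2-Eb1* from 0.75 to 1.09. The order of the chain genes thus changes with the divisor. Per length, *Cd74* exceeded *H2-Ab1* between 11.0-fold and 16.6-fold, and *Cd80* exceeded *Cd86* between 2.78-fold and 7.41-fold.

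**Figure D4:**
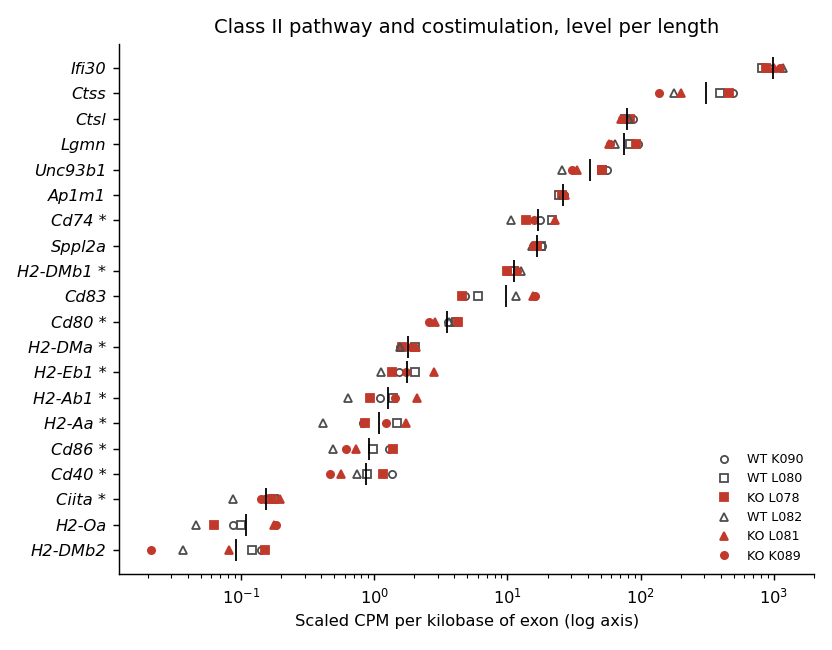
Scaled CPM per kilobase of exon (log axis) in each library for the 10 genes (marked with an asterisk) and the listed genes of the wider class II pathway with a mean of at least 0.05; open grey symbols are WT, filled red symbols KO, and black ticks are means of 6 libraries. The processing enzymes Ifi30 and Ctss lie far above the chain genes, and Ciita lies lowest of the 10.

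Transcripts of enzymes that prepare antigen were far more abundant than those of the chain genes. *Ifi30*, the lysosomal thiol reductase that unfolds antigen, was at 983 ± 140 scaled CPM per kilobase (SD, n = 6 libraries), and *Ctss*, the protease that trims the invariant chain, at 310 ± 155. Per length, *Ctss* exceeded *H2-Aa* between 112-fold and 602-fold. The exon lengths used were 1358 bases for *Ctss* and 3798 bases for *H2-Aa* (4 transcripts joined), so part of this gap comes from the lengths. Not divided by length, *Ctss* was at 188 to 670 and *H2-Aa* at 1.57 to 6.58 scaled CPM. Both enzymes are general lysosomal proteins of myeloid cells. *H2-Oa* and *H2-Ob*, which restrain H2-DM mainly in B cells, had at most 7 and 2 counts in a library, and *H2-Eb2* at most 1.

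*Ctss* varied with most of the listed macrophage genes, at 670, 531 and 242 CPM in WT and 188, 623 and 274 CPM in KO libraries (log2 fold change −0.41, standard error 0.53). *Marchf1* encodes a ubiquitin ligase that removes class II and CD86 from the surface, and was at 9.48, 6.61 and 2.63 CPM in WT and 2.17, 9.72 and 3.29 CPM in KO libraries. *Cd83*, which opposes that ligase, had the opposite order, at 12.3, 15.4 and 29.8 CPM in WT and 41.5, 11.8 and 40.2 CPM in KO libraries (log2 fold change 0.70, standard error 0.54). K090, L080 and L078 were thus the 3 highest libraries for *Ctss* and *Marchf1* and the 3 lowest for *Cd83*.

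The wider machinery was read from 5 further lists of 77 symbols, 70 of them listed and 60 tested. Of the 60, 0 passed both limits in edgeR's quasi-likelihood test, 19 had a positive and 41 a negative log2 fold change, and the median was −0.10 beside −0.02 over all tested genes. In the wider class II pathway 3 of 10 tested genes were positive, with extremes at *Cd83* and *Ctss*. Of the 7 genes of the promoter complex (*Rfx5*, *Rfxap*, *Rfxank*, *Creb1* and NF-Y), 2 were positive, and values ran from −0.18 (*Nfya*) to 0.11 (*Nfyb*). *Rfx5*, the DNA-binding subunit of RFX, had 708, 461 and 361 counts in WT and 301, 810 and 360 counts in KO libraries.

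Genes between interferon γ and *Ciita* were positive for 5 of 15, from −0.62 (*Irf8*, a myeloid transcription factor) to 0.36 (*Socs1*, a feedback inhibitor). *Irf1*, which acts on the *Ciita* promoter, was at 54.0, 46.0 and 32.1 CPM in WT and 30.3, 43.9 and 34.5 CPM in KO libraries. *Tgfb1* was the single gene of the 60 with an unadjusted p below 0.05 in edgeR's quasi-likelihood test, beside 0.712% of all tested genes. It was also the single one whose groups did not overlap, beside 4.31% of all tested genes. *Tgfb1* was at 176, 172 and 175 CPM in WT and 219, 185 and 208 CPM in KO libraries. Its log2 fold change was 0.23 (standard error 0.08), and edgeR gave it an adjusted p of 0.969.

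Other costimulatory and checkpoint ligands were positive for 5 of 19 tested genes, from −0.94 (*Slamf7*) to 0.43 (*Cd200*, an inhibitory ligand). *Slamf7*, a receptor of activated myeloid and lymphoid cells, had 613, 365 and 72 counts in WT and 33, 542 and 66 counts in KO libraries. *Cd200* was at 193, 218 and 350 CPM in WT and 419, 207 and 397 CPM in KO libraries. K090, L078 and L080 were the 3 highest libraries for 13 of these 19 genes, *Slamf7*, *Icosl*, *Cd274* (PD-L1), *Icam1* and *Lgals9* among them, as they were for *Cd86* and *Cd40*. Partners of CD40 and B7 signalling were positive for 4 of 9, from −0.41 (*Cd28*) to 0.16 (*Traf6*, an adaptor of CD40 and of RANK).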

How the data were processed

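RNAseq was measured in 3 WT and 3 *Slc37a2* KO libraries. The authors deposited whole-number read counts per gene symbol, not normalized, with their own edgeR comparison (fold changes, mean level, likelihood ratio, p and FDR), which was not used. The submitters' processing notes name bcl2fastq 2.20.0.422, edgeR 3.30.3 and mm10; for the aligner, the counter and the annotation, no name was given in the sources used here. Headings carry no replicate number, and 0 columns belonged to other samples.

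The counts were fitted with edgeR 4.0.16 in R 4.3.3 (filterByExpr, TMM, quasi-likelihood test with genotype as the term, Benjamini-Hochberg over 13483 genes; limits of adjusted p 0.05 and absolute log2 fold change 1.5). Intervals are 95%. Log2 CPM used a prior count of 2. Centred values, orders of libraries, lists and promoter matches are descriptions without a test. DESeq2 1.42.0, other scalings and filters, the heading letter and each library left out were alternatives. Figures used Python 3.11.15. Totals of at least 27552183 counts give the precision; counting intervals ignore duplicate reads.

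The members and lists were chosen with earlier results of these data known. Genes named are the 10 members, genes of the fixed lists, *Slc37a2*, and the 5 others closest in profile. *Brd2* and *Dexi*, which overlap members, were chosen after seeing their values. Values of some listed genes and motifs are not reported here.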

Additional observations from a re-analysis of the deposited data

How the results depend on the processing

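No alternative brought any of the 10 genes past both limits. The number of all tested genes past both limits was 2 in place of 1 without a filter, under the likelihood ratio test and under DESeq2's Wald test. With a library left out, the number of the 10 whose groups did not overlap ran from 0 to 3: *H2-Aa* and *H2-DMa* (KO higher) without WT L080, and *H2-Ab1* (KO higher), *Cd80* and *Cd40* (KO lower) without KO L078, against 9.59% and 41.8% of all tested genes in these settings. The log2 fold change of *Cd86*, near 0, turned positive with DESeq2's size factors (0.0099), upper quartile scaling (0.012), DESeq2's Wald test (0.0076), a term for the heading letter (0.015) and the L animals (0.54), and ran from −0.46 to 0.32 with a library left out. *Cd40* turned to 0.10 in the L animals. With a library left out *Cd74* ran from −0.14 to 0.31 and *H2-DMb1* from −0.11 to 0.090. *H2-Aa*, *H2-Ab1*, *H2-Eb1*, *H2-DMa*, *Ciita* and *Cd80* kept their sign in the 15 alternatives run, *H2-Aa* between 0.17 and 1.03. No paired analysis was possible because the column headings carry no replicate numbers, and the letter fitted as a term, which is no replicate number, changed no call. Depth limits *Ciita* most, with 26 to 73 counts per library. The causes were not tested.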
